A study of Mus musculus with 6 samples.

Results

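The medium-chain acyl-CoA ligases *Acsm1*, *Acsm2*, *Acsm3* and *Acsm5* and the glycine N-acyltransferase genes *Glyat* and *Keg1* were followed in the mouse kidney. These 6 genes were chosen by symbol, as enzymes of the proximal tubule that act in sequence on the same small acids, and all 6 were found among the 54532 genes of the deposited table. RNA of whole kidneys was measured in 3 Control and 3 KSPAPN libraries, and the comparison asks how the kidney transcriptome differs when its epithelium makes adiponectin. Each library held RNA pooled from 3 mice, so that 9 mice stood behind each group, and differences between single mice are not visible.

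Control mice carried KsprtTA alone and are given the genotype WT in the labels. KSPAPN mice carried KsprtTA together with TRE-Adiponectin. In these mice the Ksp promoter drives the doxycycline-activated transactivator rtTA in the epithelium along the nephron, proximal tubule and collecting duct included, and rtTA switches on the adiponectin transgene. Both groups ate chow with doxycycline at 600 mg/kg for 4 days, so the drug and the transactivator were common to both. The mice were males on a C57BL/6 background, and the age of these mice was not given in the sources used here.

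Medium-chain acyl-CoA ligases of the mitochondrial matrix spend ATP to join medium-chain fatty acids, and aromatic acids such as benzoate, to coenzyme A. Glycine N-acyltransferase then moves the acyl group to glycine, which gives hippurate from benzoate and frees coenzyme A. The conjugates are secreted into the urine by organic anion transporters, and the proximal tubule is, with the liver, a main site of these steps.

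Total counts per library lay between 17183358 and 18205023 in Control and between 18150442 and 20871173 in KSPAPN, and no member had fewer than 1943 counts in any library. *Adipoq*, the overexpressed gene, had 0 to 2 counts in the Control libraries and 17483 to 26811 in the KSPAPN libraries. The labels name kidney as the tissue while their extraction text speaks of liver. The summed level of 8 hepatocyte markers was 17.8 to 25.7 FPKM in Control and 12.1 to 24.6 FPKM in KSPAPN. The highest count among them was 407, for *Fga*, and *Alb* had 213 counts at most. *Ahsg* and *Serpina3k* were too low to be tested, at 0 to 3 counts in the Control libraries and in KSPAPN replicate 1, and at 14 to 34 counts in KSPAPN replicates 2 and 3. The 11 proximal tubule markers summed to 3691 to 4233 FPKM and 3191 to 3450 FPKM in the same groups. KSPAPN replicate 1 differed from the other KSPAPN libraries in some sums of cell type markers. It had the lowest proximal tubule sum, and its collecting duct sum was 626 FPKM against 317 and 336 FPKM in the others. Most of that sum was *Aqp2*, at 537.0 FPKM in KSPAPN replicate 1 and 241.5 and 227.3 FPKM in replicates 2 and 3. Among the KSPAPN libraries, *Aqp3* was also highest in replicate 1, *Scnn1g* lay between, and *Atp6v1g3* and *Slc4a1* were lowest there.

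*Acsm2* was the one gene of the 6 whose KSPAPN libraries all lay below all Control libraries. Its level was 30.8% lower in KSPAPN, which did not pass the adjusted threshold of edgeR, the main test. *Glyat* and *Keg1* followed *Acsm2* from library to library, as many other genes did, and were lower in their means, with overlapping groups. *Acsm5* was slightly lower in its mean, and *Acsm1* and *Acsm3* stood close to their Control level. None of the 6 genes passed an adjusted p of 0.05, in a fit where 2.65% of the 16017 genes tested did so.

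The 3 genes whose levels moved together across the libraries, *Acsm2*, *Glyat* and *Keg1*, are shown with the 250 bases before their RefSeq start site (GRCm38.p6, all on the plus strand). Capitals mark matches, on either strand, to 4 short motifs searched by their letters. The motifs were the nuclear receptor half-site AGGTCA, the HNF4 core CAAAGTCCA, the HNF1 half-site GTTAAT and the TATA box TATAAA.

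Acsm2, chr7:119554090-119554339: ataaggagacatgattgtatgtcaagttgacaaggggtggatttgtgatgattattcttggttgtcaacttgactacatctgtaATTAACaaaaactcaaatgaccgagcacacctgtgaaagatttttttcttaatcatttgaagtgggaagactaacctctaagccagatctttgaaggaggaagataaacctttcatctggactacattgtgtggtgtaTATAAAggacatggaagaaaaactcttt

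Glyat, chr19:12633058-12633307: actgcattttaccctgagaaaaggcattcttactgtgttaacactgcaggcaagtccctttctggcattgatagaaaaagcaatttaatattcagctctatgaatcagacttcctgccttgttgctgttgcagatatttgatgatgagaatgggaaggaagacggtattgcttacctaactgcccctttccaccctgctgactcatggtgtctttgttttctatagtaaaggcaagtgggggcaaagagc

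Keg1, chr19:12695540-12695789: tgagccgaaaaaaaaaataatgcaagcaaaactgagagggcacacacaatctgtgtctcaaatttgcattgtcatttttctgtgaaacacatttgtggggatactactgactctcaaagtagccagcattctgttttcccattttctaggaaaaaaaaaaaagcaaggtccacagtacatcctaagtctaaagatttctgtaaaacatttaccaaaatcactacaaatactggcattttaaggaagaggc

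The *Acsm2* window held GTTAAT on the minus strand at positions -166 to -161 from the start site, and TATAAA on the plus strand at -28 to -23. The *Glyat* and *Keg1* windows held none of the 4 motifs. Among the 7 windows that RefSeq gives for the 6 genes, of which *Acsm2* has a pair, the only other match was AGGTCA on the minus strand in the *Acsm1* window, at -107 to -102. The RefSeq windows of *Acsm1* and *Acsm5* begin inside the bounds that GENCODE gives these genes. So does the other *Acsm2* window, chr7:119561458-119561707, whose bases are not shown. Of all 32851 mouse windows of this length, 14.0% held AGGTCA, 0.384% CAAAGTCCA, 6.43% GTTAAT and 12.4% TATAAA. A match here describes letters and not a bound site.

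*Acsm2* (ENSMUSG00000030945, chromosome 7, 119554340 to 119600690, plus strand) encodes a medium-chain ligase whose human relatives activate benzoate and other aromatic acids. Its FPKM was 594.7, 709.1 and 533.8 in the Control libraries and 301.1, 503.9 and 464.3 in the KSPAPN libraries. FPKM scales fragments by gene length and library depth, so it can be compared between genes. Each KSPAPN library lay below the lowest Control library, a pattern that 13.5% of all genes tested had. The means were 423 ± 108 FPKM in KSPAPN and 613 ± 89.0 FPKM in Control (SD, n = 3 each). The log2 fold change was -0.53 (SE 0.18, 95% interval -0.94 to -0.12), with an adjusted p of 0.156 in edgeR's quasi-likelihood test.

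For *Acsm2* the call depended on the tool, and the size of the difference on 1 library. DESeq2 gave the same log2 fold change of -0.53 with an adjusted p of 0.0363, and *Acsm2* was the only one of the 6 genes that it called, while it called 4.76% of all genes lower. Over all alternatives the adjusted p of *Acsm2* ran from 4.38e-05, in edgeR without the filter on low counts, to 0.362, without Control replicate 2. Its log2 fold change was negative in each. Without the filter its SE was 0.107 against 0.184 with the main settings, and the other 5 genes had nearly the same SE there. The reason for this was not tested. KSPAPN replicate 1 was the lowest library, and without it the log2 fold change of *Acsm2* was -0.32, with an adjusted p of 0.191 in edgeR. *Acsm2* ranked 40th among protein-coding genes by mean FPKM in Control and 53rd in KSPAPN.

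*Acsm1* (ENSMUSG00000033533, chromosome 7, 119607026 to 119662515, plus strand), a ligase of butyrate and medium-chain acids, stood at nearly the same mean level in both groups. Its FPKM was 81.6, 89.7 and 75.7 in Control and 85.1, 76.4 and 87.6 in KSPAPN, and the groups overlapped throughout. The means were 82.3 ± 7.01 and 83.0 ± 5.87 FPKM (SD, n = 3 each). The log2 fold change of 0.02 (95% interval -0.20 to 0.24, adjusted p = 0.944 in edgeR) changed sign when either Control replicate 3 or KSPAPN replicate 3 was left out.

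*Acsm3* (ENSMUSG00000030935, chromosome 7, 119760923 to 119787513, plus strand) encodes a ligase with a preference for butyrate and other short acids. It had 85.7, 142.6 and 119.6 FPKM in Control and 94.6, 114.0 and 126.0 FPKM in KSPAPN, and the Control libraries spanned all of the KSPAPN values. Its log2 fold change was -0.05 (SE 0.17, adjusted p = 0.904 in edgeR) and turned positive, at 0.02, when libraries were scaled by total counts only. Of its 4936 exon bases, 1962 are shared with *Eri2* on the opposite strand, and whether the counting used strand is not given in the sources used here. *Eri2* had 417 counts at most, and 26.5% of the 100-base stretches of *Acsm3* lie in that shared sequence.

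*Acsm5* (ENSMUSG00000030972, chromosome 7, 119519463 to 119545551, plus strand), a further ligase of the family, was the least abundant of the 6 genes. Its FPKM was 37.3, 34.1 and 29.1 in Control and 26.0, 29.7 and 29.4 in KSPAPN. Only KSPAPN replicate 1 lay below the lowest Control library. The log2 fold change was -0.23 (SE 0.11), with a p of 0.0513 and an adjusted p of 0.271 in edgeR. It was -0.15 without Control replicate 1, and it lay between -0.32 and -0.15 with any one library left out. *Acsm5* shares 104 exon bases with *Pdilt* on the opposite strand, which had 93 counts at most.

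*Glyat* (ENSMUSG00000063683, chromosome 19, 12633308 to 12653911, plus strand) encodes the glycine N-acyltransferase that completes hippurate. Its FPKM was 94.7, 108.9 and 81.6 in Control and 48.1, 86.9 and 77.4 in KSPAPN. The lowest Control library lay below KSPAPN replicate 2 and above the other two KSPAPN libraries, so the groups overlapped. The means were 95.1 ± 13.7 and 70.8 ± 20.2 FPKM (SD, n = 3 each), with a log2 fold change of -0.42 (95% interval -0.84 to -0.01) and an adjusted p of 0.261 in edgeR. Without KSPAPN replicate 1, the log2 fold change was -0.20.

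*Keg1* (ENSMUSG00000024694, chromosome 19, 12695786 to 12719902, plus strand), the kidney-expressed relative of *Glyat*, stood at 3.04 ± 0.30 times the FPKM of *Glyat* in Control and 3.36 ± 0.38 times in KSPAPN (SD, n = 3 each). It had 260.5, 365.3 and 245.7 FPKM in Control and 179.0, 257.0 and 264.0 FPKM in KSPAPN, and Control replicate 2 was the highest library of all. Only KSPAPN replicate 1 lay below every Control library. The log2 fold change was -0.31 (SE 0.18, adjusted p = 0.381 in edgeR), and it was -0.11 without Control replicate 2 and -0.14 without KSPAPN replicate 1. Of its 5664 exon bases, 491 are shared with the antisense gene *Gm15962*, which had 439 counts at most.

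**Figure D1:**
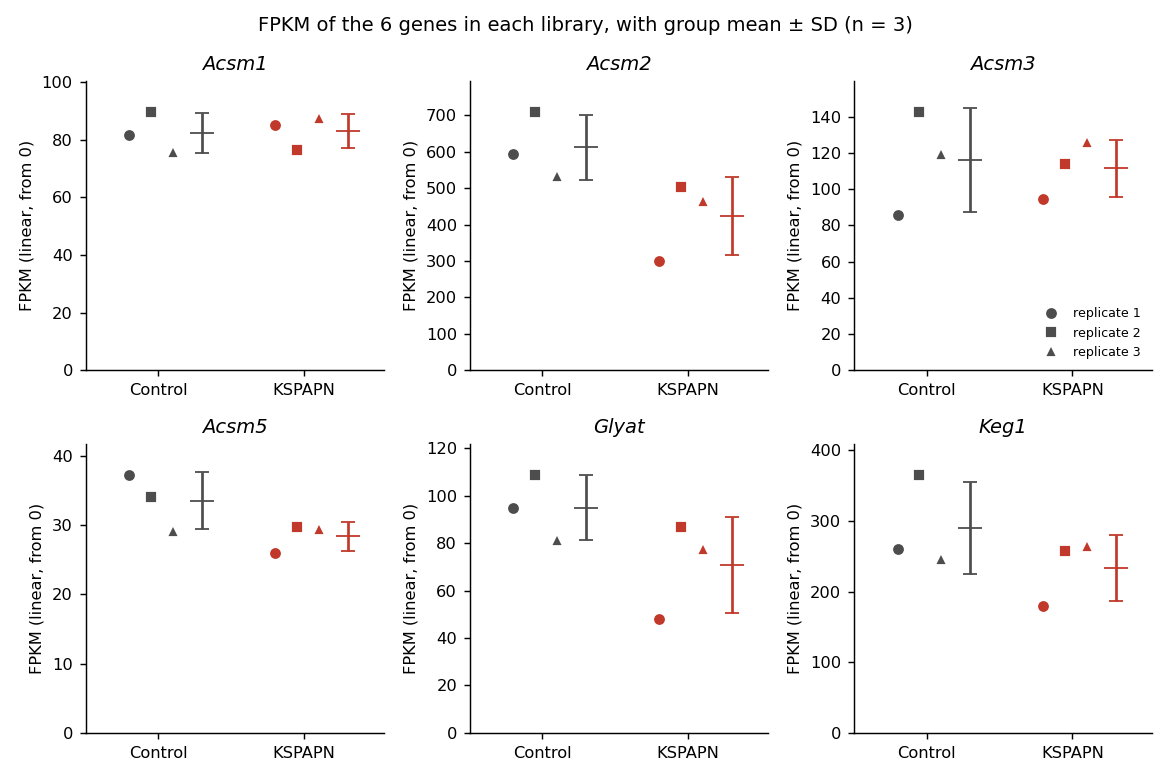
FPKM (vertical axes, linear, from 0) of each gene in the 3 Control libraries (grey) and the 3 KSPAPN libraries (red), with the group mean and SD drawn to the right of the points. The *Acsm2* points of KSPAPN, 301.1 to 503.9 FPKM, all sit below those of Control, 533.8 to 709.1 FPKM, whereas the points of the other 5 genes overlap.

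Counted over the 6 genes, 5 had a log2 fold change below 0, against 48.1% of all genes tested. *Acsm2* and *Glyat* had an unadjusted p under 0.05 in edgeR and were lower, against 11.2% of all genes tested. Their median was -0.27 on the log2 scale, beside 0.01 over all genes tested. The 6 genes lie in 2 clusters and share libraries, so they are not independent of each other. They were chosen with earlier results of these data known.

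**Figure D2:**
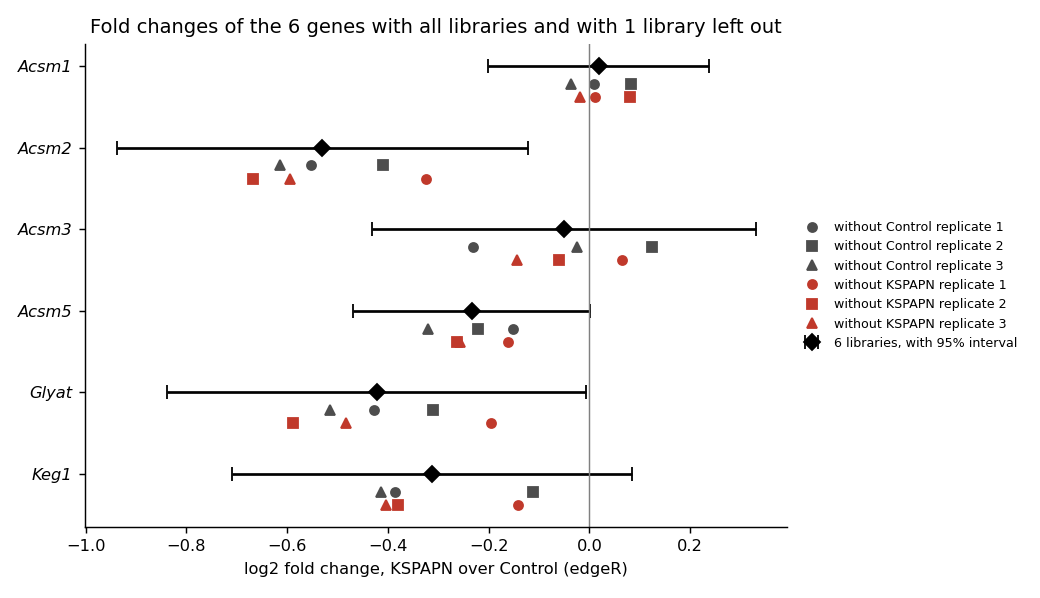
Log2 fold change of KSPAPN over Control for each gene (edgeR), with all 6 libraries and the 95% interval (black), and after removal of any one library (grey, a Control library left out; red, a KSPAPN library left out). *Acsm2* stays between -0.67 and -0.32, and *Keg1* between -0.41 and -0.11, while *Acsm1* and *Acsm3* fall on both sides of 0.

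The ligases summed to 799, 975 and 758 FPKM in Control and to 507, 724 and 707 FPKM in KSPAPN. The groups did not overlap, and the two-sided exact permutation test gave p = 0.1, the smallest that 3 against 3 libraries allow. *Acsm2* supplied most of this sum, 74.4%, 72.7% and 70.4% in Control and 59.4%, 69.6% and 65.7% in KSPAPN. Its share was lower in every KSPAPN library (72.5 ± 2.01% against 64.9 ± 5.13%, SD, n = 3 each, exact permutation p = 0.1). *Acsm1* supplied 9.80 ± 0.53% in Control and 13.2 ± 3.21% in KSPAPN (exact permutation p = 0.1), without overlap. Shares of the same sum are not independent of each other. The mean FPKM of *Acsm1* was 82.3 in Control and 83.0 in KSPAPN, so its higher share went with the lower sum.

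The glycine acyltransferases summed to 355, 474 and 327 FPKM in Control and to 227, 344 and 341 FPKM in KSPAPN, with overlap (exact permutation p = 0.4). *Keg1* supplied 75.2 ± 1.85% of this sum in Control and 76.96 ± 2.06% in KSPAPN (exact permutation p = 0.4). Across the 15 pairs of genes, 3 log2 ratios of FPKM did not overlap between groups, those of *Acsm2* to *Acsm1*, to *Acsm3* and to *Glyat*. With 3 libraries against 3, no exact permutation test of a pair could give a p under 0.1, so these tests cannot show whether a pair differed in its response. The lowest p adjusted over the 15 pairs was 0.429.

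*Acsm2*, *Glyat* and *Keg1* had similar profiles over the 6 libraries. Control replicate 2 was the highest and KSPAPN replicate 1 the lowest library of all 3 genes. Pearson's r of log2 CPM (counts scaled to library depth) over the 6 libraries was 0.987 for *Acsm2* and *Glyat*, and 0.996 after the group means were removed. It was 0.921 for *Acsm2* and *Keg1* and 0.920 for *Glyat* and *Keg1*. Such values were not particular to these genes: of 11161 genes compared, 169 reached 0.95 with *Acsm2* and 113 with *Glyat*. The log2 ratio of *Acsm2* to *Glyat* lay between 2.54 and 2.71 in every library, although the genes are on different chromosomes and *Acsm2* itself ranged from 301.1 to 709.1 FPKM.

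*Acsm1* did not share this profile, with r between -0.10 and 0.25 to the other 5 genes, and its next neighbour on the chromosome, *Acsm2*, gave -0.07. *Acsm3* gave 0.41 with *Acsm2*, and *Acsm5* gave 0.82. These coefficients describe 6 libraries that share a tissue, pools of mice and a library scaling.

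**Figure D3:**
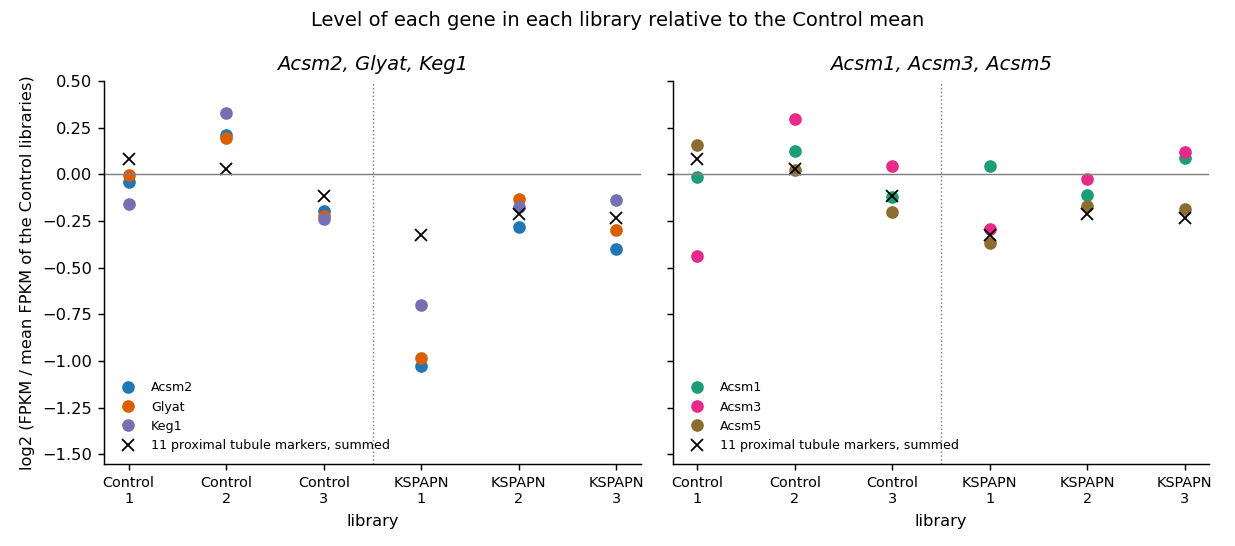
Level of each gene in each library as log2 of its FPKM over the mean FPKM of the Control libraries (vertical axis), with the summed level of 11 proximal tubule markers as crosses. *Acsm2*, *Glyat* and *Keg1* (left) are all lowest in KSPAPN replicate 1, at -1.02, -0.98 and -0.70. There the marker sum is at -0.33 and *Acsm1* (right) is at 0.05. In KSPAPN replicates 2 and 3 the marker sum, at -0.21 and -0.23, lies within the range of *Acsm2*, *Glyat* and *Keg1*.

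Of the 11 proximal tubule markers, 2 were called lower in edgeR (*Ggt1* and *Miox*), 18.2% beside the 2.65% of all genes tested. The markers were chosen with earlier results of these data known. The log2 fold changes of the 11 ran from -0.60 to 0.33, with a median of -0.25, and lay below 0 in 9 and above 0 in *Slc13a1* and *Slc5a12*. Their sum did not overlap between groups, at 4002 ± 280 FPKM in Control and 3349 ± 139 FPKM in KSPAPN (SD, n = 3 each, exact permutation p = 0.1). The most abundant markers weigh most in this sum and moved unequally. In Control and KSPAPN, mean FPKM was 1212 and 1085 for *Slc34a1*, 958 and 943 for *Slc27a2*, and 917 and 603 for *Miox*. All 3 markers of the last, straight segment (S3), *Slc7a13*, *Cyp7b1* and *Slc22a13*, were called lower, and their sum was 329 to 502 FPKM in Control and 89.8 to 198 FPKM in KSPAPN. In whole tissue, fewer cells of a type and less RNA per cell cannot be told apart.

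Set against the summed proximal tubule markers, a scale chosen after seeing the data, *Acsm2* amounted to 14.1%, 17.4% and 14.5% of that sum in Control and 9.44%, 14.6% and 13.6% in KSPAPN. On this scale the groups overlapped (exact permutation p = 0.3). They also overlapped for *Acsm3*, *Acsm5*, *Glyat* and *Keg1* (exact permutation p = 0.6, 0.7, 0.6 and 0.9). The summed ligases and the summed glycine acyltransferases, on the same scale, each gave an exact permutation p of 0.6. *Acsm1* amounted to 1.93%, 2.20% and 2.05% in Control and 2.67%, 2.21% and 2.57% in KSPAPN, higher in each KSPAPN library (exact permutation p = 0.1). Its own mean FPKM was 82.3 in Control and 83.0 in KSPAPN, so the higher share went with the lower marker sum. The part of the marker difference in the levels of the 6 genes was not tested.

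The 4 ligase genes lie within 268.1 kb of chromosome 7 (119519463 to 119787513, GRCm38), all on the plus strand and in the order *Acsm5*, *Acsm2*, *Acsm1*, *Acsm3*. *Acsm4*, between *Acsm1* and *Acsm3*, had 4 counts at most and was not tested. Of 13 other genes tested inside the cluster or within 100 kb of it, none passed an adjusted p of 0.05 in edgeR, and 1 had an unadjusted p under 0.05. That gene was *Gm45792*, a transcript on the opposite strand within *Acsm1* (log2 fold change -0.57, adjusted p = 0.148 in edgeR), named here after its value was seen. *Gm19950*, also opposite to *Acsm1* and without shared exon bases, had 4227, 4409 and 4010 counts in Control and 3235, 4638 and 4586 in KSPAPN. Its log2 fold change was -0.21, with an adjusted p of 0.570 in edgeR. *Umod*, the abundant thick ascending limb gene beside the cluster, had a log2 fold change of -0.04 (adjusted p = 0.903 in edgeR).

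*Glyat* and *Keg1* lie within 86.6 kb of chromosome 19 (12633308 to 12719902). Of 6 other genes tested there or within 100 kb, 2 fell in KSPAPN, and both lie on the side of *Glyat* away from *Keg1*. *Gm4952*, a *Glyat*-like gene next to *Glyat*, had 1.99, 1.41 and 0.93 FPKM in Control and 0.15, 0.44 and 0.41 FPKM in KSPAPN. Every KSPAPN library was below every Control library, with a log2 fold change of -2.13 (SE 0.44, adjusted p = 0.0345 in edgeR), on 83 counts at most. *A330040F15Rik*, a processed transcript beyond it, had a log2 fold change of -1.04 (SE 0.21, adjusted p = 0.0297 in edgeR) and was chosen for mention after its value was seen.

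**Figure D4:**
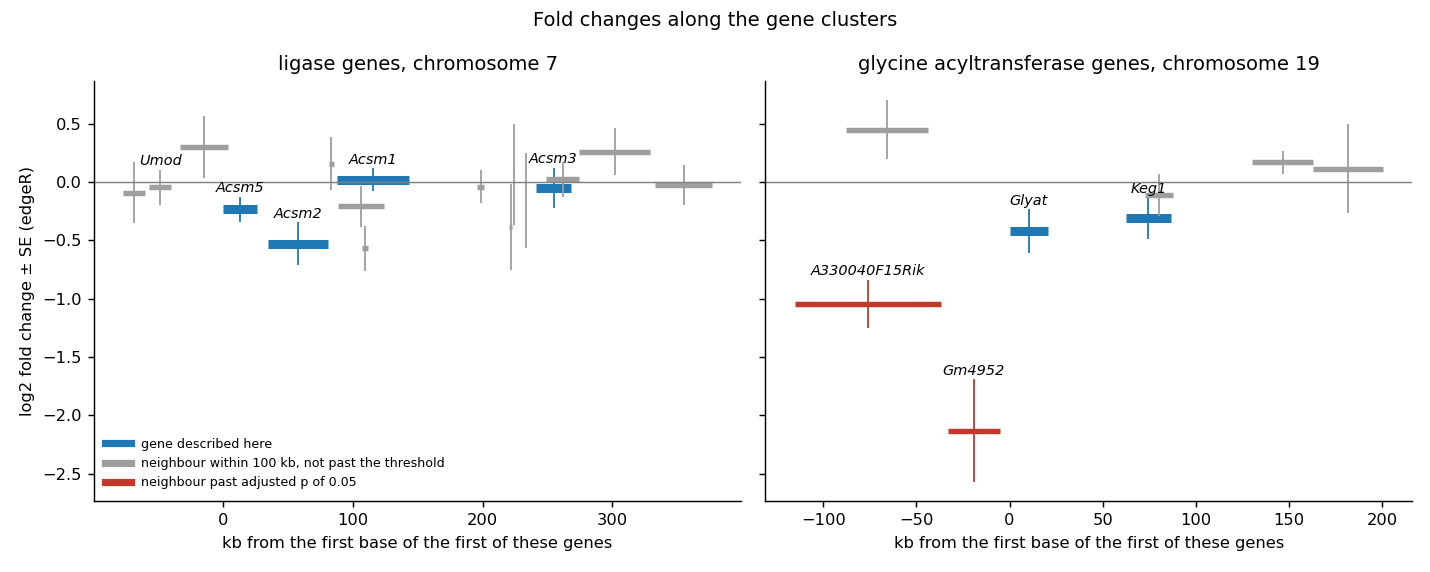
Log2 fold change with SE (vertical axis, edgeR) of the genes tested along the ligase cluster (left) and the glycine acyltransferase cluster (right), against the distance in kb from the first base of the first gene described. Bars span each gene. *Gm4952* at -2.13 and *A330040F15Rik* at -1.04 are the called neighbours, while *Glyat* and *Keg1* beside them lie at -0.42 and -0.31.

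The wider pathway was read from 8 lists that held none of the 6 genes, 88 genes in all, of which 83 were tested. In edgeR 15 of these fell in KSPAPN, 18.1% beside the 2.65% of all genes tested, and none passed the adjusted threshold in the other direction, where 3 had an unadjusted p under 0.05. The median over the 83 genes was -0.20 on the log2 scale. The lists were chosen with earlier results of these data known, so the 18.1% is not an independent test of the pathway. The proximal tubule and S3 marker sums were lower in the same libraries, and their part in these counts was not tested. The count was 31 by DESeq2, and with 1 library left out it was as low as 1, without Control replicate 1. The count was 2, 4 and 9 without KSPAPN replicate 3, Control replicate 2 and KSPAPN replicate 2.

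Organic anion transporters carry conjugates such as hippurate between blood, cell and urine. Of 9 tested, 3 fell and 6 were not called, with a median of -0.46 on the log2 scale. *Slc22a6* (OAT1), the basolateral carrier that takes up hippurate, had 264.8, 293.4 and 257.5 FPKM in Control and 186.9, 197.4 and 205.7 FPKM in KSPAPN (log2 fold change -0.46, SE 0.10, adjusted p = 0.0388 in edgeR). *Slc22a7* (OAT2) had the largest drop of the 3, from 124 ± 14.9 to 38.7 ± 16.8 FPKM (log2 fold change -1.68, adjusted p = 0.0136 in edgeR). *Slc22a12* (URAT1), the apical urate exchanger and the most abundant of the list, fell from 599 ± 70.8 to 307 ± 28.9 FPKM (log2 fold change -0.96, adjusted p = 0.00581 in edgeR). In none of these 3 genes did the groups overlap.

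Enzymes that split N-acyl amino acids were 4, of which 2 fell and 2 were not called. *Acy1*, which removes the acyl group from most N-acyl amino acids, fell from 53.4 ± 4.47 to 34.1 ± 5.48 FPKM (log2 fold change -0.64, adjusted p = 0.0259 in edgeR). *Aspa*, which splits N-acetylaspartate, fell from 16.2 ± 1.70 to 8.20 ± 2.61 FPKM (log2 fold change -0.98, adjusted p = 0.0322 in edgeR). *Acy3*, the aromatic acylase and the most abundant gene of the list, had 1572, 1919 and 1650 FPKM in Control and 1174, 1402 and 1267 FPKM in KSPAPN. Its libraries did not overlap, and its adjusted p was 0.0954 in edgeR.

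Of 20 tested genes of glycine supply and use, 4 fell and 16 were not called. *Shmt2*, which makes glycine from serine in mitochondria, fell from 96.9 ± 9.93 to 65.3 ± 6.42 FPKM (log2 fold change -0.56, adjusted p = 0.0274 in edgeR). *Sardh*, which makes glycine from sarcosine, fell by 0.56 on the log2 scale (adjusted p = 0.0306 in edgeR). The amino and imino acid transporters *Slc6a20b* and *Slc36a1* fell by 0.47 and 0.46 on the log2 scale (adjusted p = 0.0298 and 0.0449 in edgeR). *Gatm*, the first enzyme of creatine synthesis, which uses glycine, had 176 ± 5.01 and 160 ± 57.9 FPKM (adjusted p = 0.768 in edgeR). It was close in level to *Slc6a18*, a neutral amino acid transporter with 185 ± 16.3 and 151 ± 15.3 FPKM (adjusted p = 0.193 in edgeR). *Slc6a18* had the higher mean in Control and *Gatm* in KSPAPN. By library, *Gatm* was the higher of the pair only in Control replicate 1 and in KSPAPN replicate 3, where it had 222.0 FPKM. *Slc6a18* is named after its values were seen.

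Coenzyme A is the other substrate of the ligases. *Coasy*, which catalyses its last steps of synthesis, fell from 96.1, 107.5 and 77.2 FPKM in Control to 46.0, 58.6 and 49.7 FPKM in KSPAPN. This was the only call among 11 genes of coenzyme A synthesis and breakdown (log2 fold change -0.86, SE 0.13, adjusted p = 0.0116 in edgeR), and the list's median was -0.36. *Nudt19*, a peroxisomal coenzyme A hydrolase and the most abundant of that list, had 153, 124 and 159 FPKM in Control and 56.1, 144 and 134 FPKM in KSPAPN (adjusted p = 0.486 in edgeR). KSPAPN replicate 1 was again the lowest library.

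Medium- and short-chain beta-oxidation uses the acyl-CoAs that the ligases make. Of 14 genes tested, 3 fell and 11 were not called. *Acadm*, the medium-chain acyl-CoA dehydrogenase and the most abundant of the list, had 244.6, 296.0 and 250.7 FPKM in Control and 132.6, 170.1 and 176.9 FPKM in KSPAPN (log2 fold change -0.72, adjusted p = 0.0214 in edgeR). *Crot*, the carnitine octanoyltransferase of peroxisomes, fell by 0.76 and the enoyl-CoA hydratase *Echs1* by 0.47 on the log2 scale (adjusted p = 0.0248 and 0.0197 in edgeR).

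Other acyl-CoA synthetases had a median log2 fold change of 0.06, and 1 of 13 tested fell. That was *Acsf3*, the malonyl-CoA synthetase of mitochondria (from 20.97 ± 2.36 to 14.5 ± 1.002 FPKM, adjusted p = 0.0282 in edgeR). *Slc27a2*, the most abundant of this list and itself one of the proximal tubule markers, had 958 ± 85.3 FPKM in Control and 943 ± 119 FPKM in KSPAPN (adjusted p = 0.958 in edgeR). Among the 4 tested genes of the list of other amino acid acyltransferases, *Gm4952* was the only call. *Acnat2*, the most abundant of these, had 47.4 ± 5.18 and 36.5 ± 12.0 FPKM (adjusted p = 0.358 in edgeR).

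None of the 8 acyl-CoA thioesterases, which split acyl-CoAs again, passed in edgeR, where 1 had an unadjusted p under 0.05. That was *Acot12*, with 43.3, 55.9 and 37.8 FPKM in Control and 20.97, 33.1 and 30.2 FPKM in KSPAPN (log2 fold change -0.70, adjusted p = 0.0657 in edgeR). *Acot13*, the most abundant, had 130 ± 5.33 and 124 ± 18.0 FPKM (adjusted p = 0.7996 in edgeR).

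**Figure D5:**
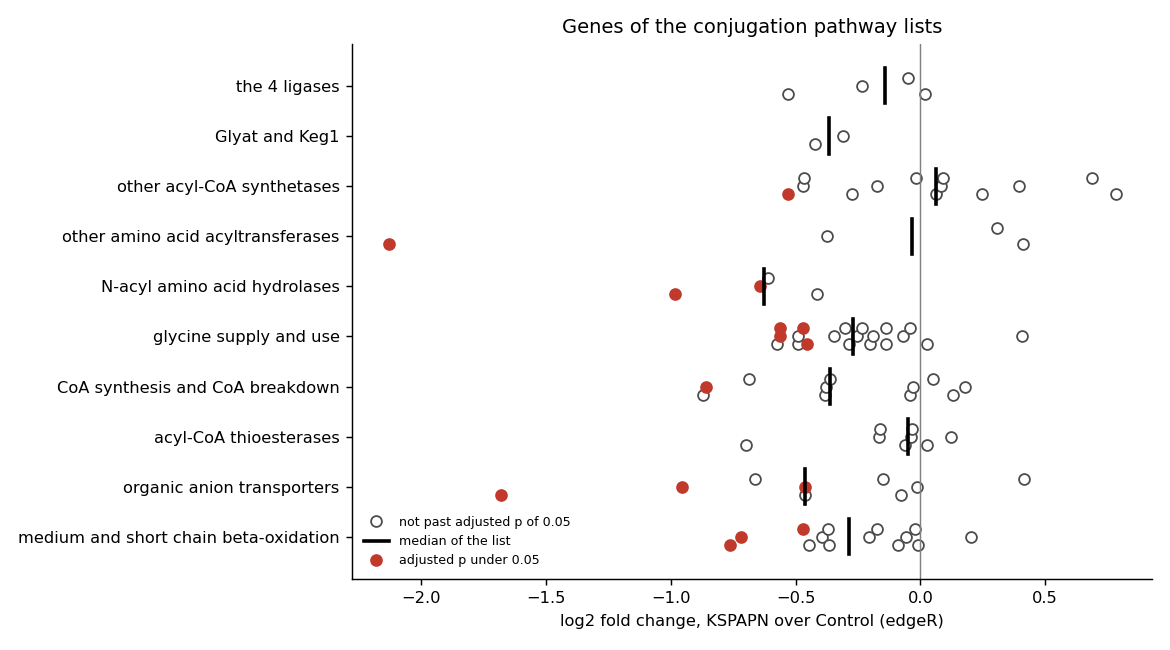
Log2 fold change of KSPAPN over Control (horizontal axis, edgeR) of each tested gene of the pathway lists, 1 point per gene, with the median of each list as a bar. Red points passed an adjusted p of 0.05; all 15 lie below 0, and none of the 6 genes in the upper lists is among them.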

How the data were processed

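Whole-kidney RNA of 6 libraries was analysed from 1 deposited table with 54532 genes. It holds read counts per gene, which the authors deposited without normalization, and FPKM, which the authors scaled by gene length and library size. The submitters' processing notes name STAR 2.5, TopHat, HTSeq 0.6.1, DESeq2 and edgeR; no source used here states the genome build, the annotation or the strandedness. GENCODE M21 (GRCm38) supplied symbols and coordinates for the Ensembl identifiers, of which 37 had no match. Promoter windows came from RefSeq (GRCm38.p6), and all 6 genes were matched by symbol.

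Counts were tested in edgeR 4.0.16 (R 4.3.3) with TMM factors, filterByExpr (at least 10 counts, and at least 15 in total) and the two-sided quasi-likelihood test, with Benjamini-Hochberg adjustment over the 16017 genes tested. The edgeR, DESeq2 and limma fits were run on simulated counts whose changes were larger than those of the 6 genes. The permutation tests and the comparisons of profiles were not run on simulated data. For single values per library, groups were compared by a two-sided exact permutation test, which has 20 arrangements of 6 libraries. Alternatives were DESeq2 1.42.0, limma 3.58.1 on log2 FPKM with a pseudocount of 1 or 0.1, other normalizations, no filter, a replicate block, removal of trends with GC content and gene length, and each library left out. P-values set the difference between groups against the spread between pooled libraries, and not between single mice. Reads carry no molecular identifiers.

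The 6 genes, the pathway lists and the marker lists were chosen with earlier results of these data known. Genes named from the pathway lists were those at an adjusted p under 0.05, at most 5 a list, otherwise the one with the smallest p, and the one with the highest mean FPKM. Pathway or neighbouring genes named outside this rule are said to be, and single markers were named after their values were seen. Tables were handled with Python 3.11.15, pandas 2.3.3 and scipy 1.17.1, and plots drawn with matplotlib 3.10.9.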

Additional observations from a re-analysis of the deposited data

How the results depend on the processing

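Genes called over the whole table numbered 424 (63 higher, 361 lower). They were 975 with DESeq2, 266 with total counts only (71 higher, 195 lower), 1339 without a filter on low counts, 128 and 119 with limma on log2 FPKM plus 1 and plus 0.1, and 39 to 733 with 1 library left out. Scaling by total counts only moved the median over all genes from 0.01 to 0.08 on the log2 scale. The 15 calls in the pathway lists became 31 with DESeq2, 36 without the filter, 3 with either limma fit and 1 to 17 with 1 library left out. None of the 6 genes was called with the main settings of edgeR. DESeq2 called 1, *Acsm2* (log2 fold change -0.53), and edgeR without the filter called 2, *Acsm2* (-0.53) and *Glyat* (-0.43). Without the filter the SEs of the 6 genes were nearly equal, 0.107 to 0.109, against 0.099 to 0.188 with the main settings. No leave-one-out fit called any of them in edgeR. *Acsm1* reversed without Control replicate 3 (-0.037) and without KSPAPN replicate 3 (-0.019), within a range of -0.037 to 0.083. *Acsm3* reversed with total counts only (0.019) and ranged from -0.23 to 0.12 with 1 library left out. *Acsm5*, *Keg1*, *Glyat* and *Acsm2* kept their direction in each of the 16 alternatives. The causes of these changes were not tested.

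The main fit did not pair the libraries by replicate number. Same-numbered Control and KSPAPN libraries deviated together with r of 0.05, 0.15 and 0.17. Between Control and KSPAPN libraries of different numbers, r ran from -0.18 to 0.02, below each same-numbered value. Whether equal numbers mark libraries handled together was not tested. With the replicate number as a block, 929 genes were called, 30 of them in the pathway lists, and none of the 6 genes (*Acsm2* -0.55, adjusted p = 0.0646 in edgeR). With the block and the trends with GC content and gene length removed, 678 genes were called, 23 of them in the pathway lists, and 1 of the 6 genes, *Acsm2* (-0.67, adjusted p = 0.0281 in edgeR).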

Other observations

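For each of the 6 genes, protein-coding genes with the most similar profile over the 6 libraries were sought by Pearson's r of log2 CPM. The search covered 11161 genes of at least 1 FPKM on average. This r compares the shape of a profile, and not its level or the size of its change. With 6 libraries that share tissue and scaling, a high r is reached by many genes: 169 genes reached 0.95 with *Acsm2*, 113 with *Glyat*, 52 with *Keg1*, 36 with *Acsm5*, 21 with *Acsm3* and 8 with *Acsm1*. The nearest to *Acsm2* were *Mettl2*, *4931406C07Rik* and *Itgb6* (r = 0.998, 0.996 and 0.996). The nearest to *Glyat* were *C1qtnf3*, *Sucnr1* and *Fmo1* (0.996, 0.995 and 0.995), and to *Keg1* they were *Mbl1*, *2610507B11Rik* and *Abcg2* (0.988, 0.987 and 0.987). *Acsm1* was most like *Mylk*, *Eif3d* and *Prpf4* (0.995, 0.988 and 0.966), *Acsm3* most like *Smim7*, *Asf1a* and *Aadac* (0.989, 0.988 and 0.987), and *Acsm5* most like *Mrps27*, *Aacs* and *Zfp810* (0.988, 0.986 and 0.983). None of these 18 genes passed an adjusted p of 0.05 in edgeR.

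Outside the proximal tubule, the markers tested included 4 of the thick ascending limb, 3 of the distal convoluted tubule and 5 of the collecting duct. The others tested were 4 of podocytes, 4 of endothelium, 6 of hepatocytes, 2 of adipocytes and 3 of immune cells. Together these gave 1 call, in a fit that called 2.65% of all genes tested. It was *Slc12a1* of the thick ascending limb, which rose by 0.52 on the log2 scale (adjusted p = 0.0437 in edgeR). The other markers of that segment were not called and differed in sign, with log2 fold changes of -0.41 for *Cldn10* (adjusted p = 0.0881 in edgeR, each KSPAPN library below each Control library), -0.04 for *Umod* and 0.17 for *Cldn16*, and the median of the 4 was 0.06. The 4 podocyte markers had log2 fold changes between 0.07 and 0.48, and none was called in edgeR, where 1 had an unadjusted p under 0.05. The 5 adipocyte markers summed to 0.684 to 1.63 FPKM in Control and 1.11 to 1.603 FPKM in KSPAPN.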
